A study of Mus musculus with 60 samples.

Results

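The 10 genes Trem2, Clec7a, Tyrobp, Itgax, Axl, Cd68, Lyz1, Cst7, Lgals3 and Apoe, which are known to be induced when microglia become activated, were followed in the mouse neocortex, with heart and gastrocnemius muscle beside it. They were chosen by name, and every probe set whose only gene symbol was a listed name was taken, which gave 14 probe sets of 45101 on the array and 10 genes of the 18193 that have a probe set of their own. RNA of male B6C3F1 hybrid mice (C57BL/6 x C3H/He) was profiled on 60 Affymetrix Mouse Genome 430 2.0 arrays, 20 per tissue, in 4 groups of 5 arrays. Young controls were 5 months old and ate the control AIN93M diet, and old controls were 30 months old on the same diet. Old CR mice were 30 months old and calorie restricted from 14 months, a restriction that the labels give as 40% and the methods as a smaller cut relative to these controls. Old resveratrol mice were 30 months old and ate the control diet with resveratrol from 14 months, to reach 4.9 mg per kg body weight. All mice were housed singly, and the controls were themselves fed somewhat below free intake. The labels call the arrays of a group biological replicates and do not say which tissues came from the same mouse.

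Microglia are the resident macrophages of the brain. Trem2 is a lipid-sensing receptor on their surface that signals through the adaptor Tyrobp (also called DAP12) and the kinase Syk, and Clec7a (dectin-1) is a pattern receptor that reaches Syk by its own motif. Activated microglia are known to raise these receptors together with the lysosomal proteins Cd68, lysozyme and cystatin F (Cst7), the lectin galectin-3 (Lgals3), the integrin chain Itgax (CD11c), the receptor kinase Axl and the lipid carrier Apoe. None of the genes is particular to microglia: astrocytes are the main source of Apoe in a healthy brain, and macrophages of heart and muscle use most of the others. In whole tissue, fewer cells of a type and less RNA per cell cannot be told apart.

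The sequence upstream of the gene start is shown for those genes that rose with age in the neocortex and are listed in the RefSeq promoter table (build GRCm38.p6), since they rose together with age. Capitals mark matches on either strand to 2 motifs of the ETS family, to which the macrophage factor PU.1 belongs, GAGGAA and AGGAAGT, which share the letters AGGAA. Each run has the 250 bases before the start, 5′ to 3′ on the strand of the gene.
Clec7a (chr6:129472780-129473029, minus strand, the first of 2 listed starts): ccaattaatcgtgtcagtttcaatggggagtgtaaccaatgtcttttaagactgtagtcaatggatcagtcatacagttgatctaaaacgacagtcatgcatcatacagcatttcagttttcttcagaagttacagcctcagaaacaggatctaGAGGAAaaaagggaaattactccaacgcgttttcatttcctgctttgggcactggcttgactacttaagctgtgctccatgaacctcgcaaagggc
Trem2 (chr17:48346151-48346400, plus strand): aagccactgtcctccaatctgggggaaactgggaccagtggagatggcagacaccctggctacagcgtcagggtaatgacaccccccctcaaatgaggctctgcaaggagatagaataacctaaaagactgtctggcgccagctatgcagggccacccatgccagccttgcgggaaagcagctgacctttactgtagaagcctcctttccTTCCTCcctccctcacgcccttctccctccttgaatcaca
Cd68 (chr11:69666171-69666420, minus strand): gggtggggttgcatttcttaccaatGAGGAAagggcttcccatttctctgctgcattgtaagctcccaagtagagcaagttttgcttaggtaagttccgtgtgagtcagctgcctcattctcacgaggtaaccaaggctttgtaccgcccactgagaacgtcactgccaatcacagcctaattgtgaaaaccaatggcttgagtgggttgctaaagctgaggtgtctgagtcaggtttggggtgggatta
Lyz1 (chr10:117292869-117293118, minus strand): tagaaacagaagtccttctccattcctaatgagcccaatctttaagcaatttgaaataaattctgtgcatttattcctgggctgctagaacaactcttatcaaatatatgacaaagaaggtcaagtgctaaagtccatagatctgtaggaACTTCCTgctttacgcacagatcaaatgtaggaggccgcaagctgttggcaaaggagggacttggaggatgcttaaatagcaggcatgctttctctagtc
Lgals3 (chr14:47373610-47373859, plus strand): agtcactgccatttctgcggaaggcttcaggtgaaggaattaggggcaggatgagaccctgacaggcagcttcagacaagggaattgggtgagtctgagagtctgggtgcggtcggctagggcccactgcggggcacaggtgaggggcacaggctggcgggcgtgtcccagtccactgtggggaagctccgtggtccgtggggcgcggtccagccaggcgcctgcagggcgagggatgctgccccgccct
Of the 10 genes, 9 were in the table. GAGGAA was found upstream of 5 of them, Clec7a, Trem2, Cd68, Axl and Apoe, counting any listed start, and in 23.3% of the 32851 windows of the same length. Clec7a has 2 listed starts and Apoe 3, so a count of genes and a share of windows are not alike. AGGAAGT was found upstream of Cst7 and Lyz1, and in 7.69% of all windows. The Lgals3 window above holds neither run of letters. A match is a description of the letters in the window.

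Signals are linear intensities on an arbitrary scale, and changes are given on the log2 scale with the standard error of the fit. A gene was tested in a tissue if its probe set's mean log2 signal reached the 40th percentile of that tissue, a signal of 57.3 in neocortex, 60.4 in heart and 69.3 in gastrocnemius. P values were adjusted over all genes tested in the tissue (13057 in neocortex, 13285 in heart and 12831 in gastrocnemius), with a threshold of 0.05. In neocortex 9 of the 10 genes were tested, since Cst7 stayed below this signal, and in heart and gastrocnemius 8 of 10, since Cst7 and the probe set that stood for Trem2 did. In neocortex 18 of 18 homeostatic microglia markers with a probe set reached the limit, with P2ry12 at 951 to 1693 over the 20 arrays. The T cell genes Cd3d and Cd2 and the haemoglobin gene Hba-a1 stayed below it, while 3 of 9 lymphocyte markers (Cd4, Cd8a and Ighm) reached it, of which Cd4 fell under CR (-2.26 ± 0.47). Markers of neighbouring brain regions varied between arrays. The summed signal of choroid plexus markers ran from 2629 to 31899, with a wide spread in every group. That of the striatal markers was 10534 to 15437 in young controls, 13245 to 18913 in old controls, 3378.5 to 14593 in old CR and 3917 to 14483 in old resveratrol mice.

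In neocortex, age raised 6 of the 9 genes tested, by 0.65 to 2.17 on the log2 scale (old against young controls), where 1.08% of all tested genes rose. The 6 were the receptors Clec7a and Trem2, the adaptor Tyrobp, the lysosomal genes Cd68 and Lyz1, and the lectin Lgals3. For each of these 6 genes, all 5 old controls lay above all 5 young controls. The calls rest on the same values, so this separation describes them and is no further support. Itgax, Axl and Apoe did not pass the test. The plot of neocortex signals shows each array. In 2 of the 6 genes, Clec7a and Lgals3, the limit for testing was reached through the old groups, so that the count describes the genes that passed and is not support of its own.

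**Figure D1:**
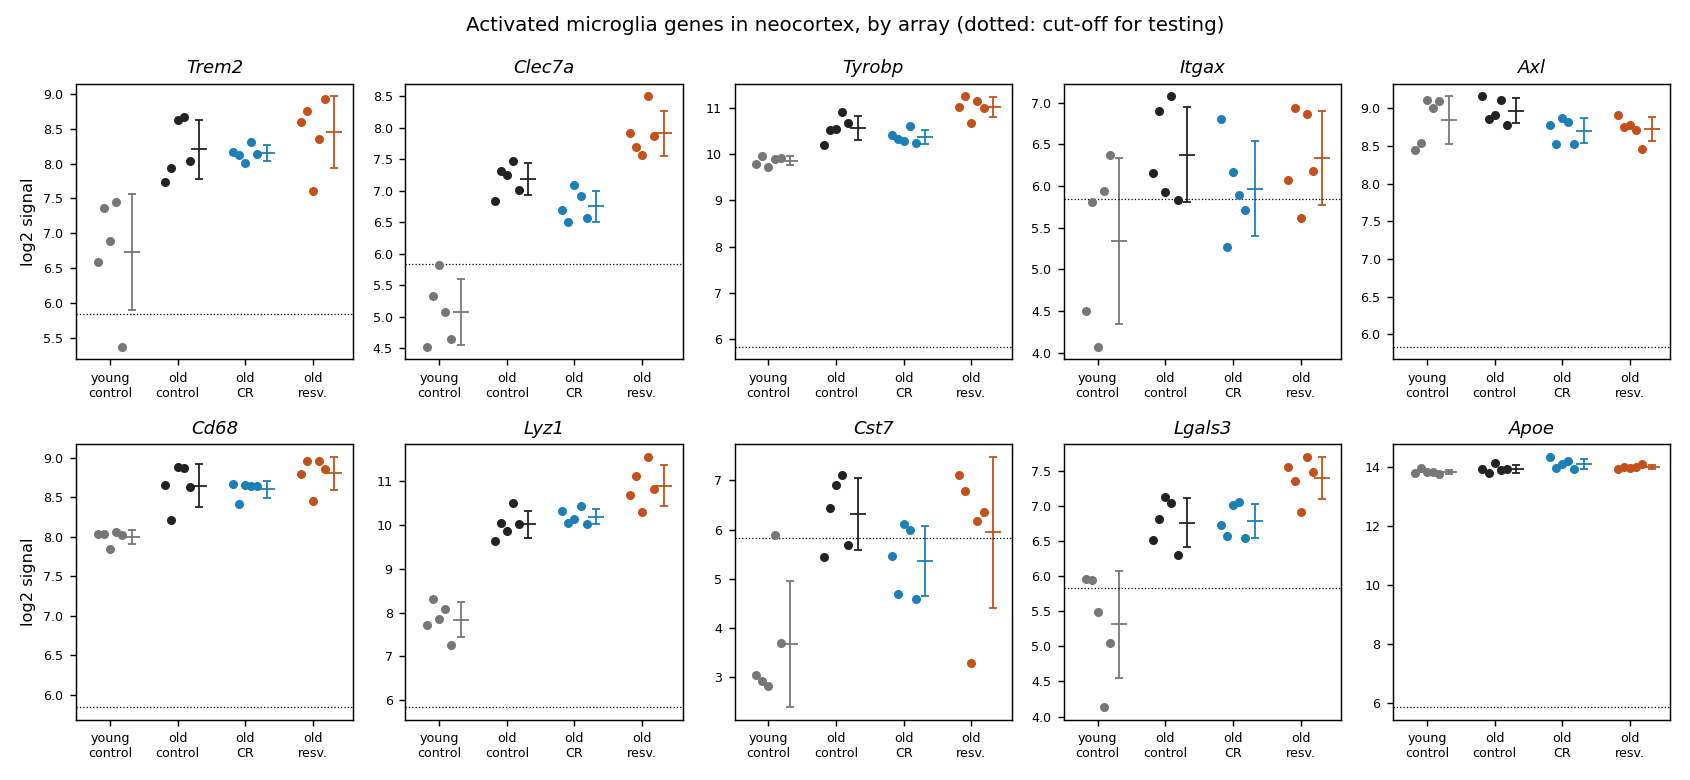
Signal of the 10 genes in the neocortex, as log2 signal on the y axis (each panel has its own range), for 5 arrays in each of 4 groups on the x axis. Points are arrays, the dash and bar beside them are mean and SD, and the dotted line is the limit for testing, at a signal of 57.3. Old controls lie above young controls without overlap for Trem2, Clec7a, Tyrobp, Cd68, Lyz1 and Lgals3.

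Among the surface receptors, Clec7a had a signal of 23.1, 40.1, 56.6, 33.6 and 25.2 in the 5 young controls and of 114.2, 160.1, 153.1, 178.1 and 129.8 in the 5 old controls. All 5 young arrays were below the limit for testing and all 5 old arrays above it, with the highest young array at about the limit. The change was 2.10 ± 0.23 (adjusted p = 1.5e-05), a 4.29-fold rise with a 95% interval of 3.08 to 5.98. Trem2 was at 96.2, 163.9, 118.6, 174.5 and 41.4 in young controls and at 214.3, 245.1, 396.7, 409.2 and 261.9 in old controls. Its groups did not overlap, and the young arrays spread more widely than the old. It rose by 1.47 ± 0.29 (adjusted p = 0.010), and a mean over both of its probe sets gave 0.05 (adjusted p = 0.97). The other Trem2 probe set stayed between 3.52 and 83.4 on all 20 arrays, with a mean signal below the limit.

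Tyrobp, the adaptor that carries the Trem2 signal into the cell, was at 886.6, 998.1, 845, 948.7 and 968.3 in young controls and at 1165, 1458, 1482, 1931 and 1618 in old controls. The 5 young arrays were close together, and the lowest old array stood above all of them. It rose by 0.70 ± 0.11 (adjusted p = 0.0021), 1.63-fold. Itgax, the CD11c chain of a leukocyte integrin, had 22.6, 56.2, 16.9, 61.3 and 82.5 in young and 71.3, 119.3, 60.9, 135.1 and 56.8 in old controls. The groups overlapped near the limit for testing, and the difference of 1.04 ± 0.41 gave an adjusted p of 0.22. Axl, a receptor kinase for the bridging ligands Gas6 and protein S, lay at 349.9 to 552.2 in young and at 440.4 to 573.1 in old controls, a difference of 0.13 ± 0.13 (adjusted p = 0.72).

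Of the lysosomal genes, Cd68, a heavily glycosylated membrane protein of phagocytes, was at 262.7, 261.5, 230.1, 266.9 and 258.6 in young and at 401.3, 295.8, 473.3, 466 and 394.5 in old controls. The young arrays differed little, and old control replicate 2 was the lowest of the old. It rose by 0.65 ± 0.12 (adjusted p = 0.0062), 1.57-fold. Lyz1, a lysozyme that cleaves bacterial cell walls, was at 209, 318.8, 230.6, 268.9 and 152.1 in young and at 797, 1053, 927, 1438 and 1038 in old controls. The lowest old array was above 2 times the highest young array. The rise was 2.17 ± 0.20 (adjusted p = 1.2e-06), or 4.5-fold with an interval of 3.40 to 5.96. This probe set may also bind related transcripts, and the neighbouring lysozyme gene Lyz2, measured by its own probe set, rose by 1.31 ± 0.20 (adjusted p = 0.0013). A further Lyz1 probe set of the same kind rose by 1.92 ± 0.32 (adjusted p = 0.0031, over all probe sets), and the Lyz1 probe set with no such mark lay between 3.90 and 54.5 on all 20 arrays, so the rise cannot be given to Lyz1 alone. Cst7, an inhibitor of lysosomal cathepsins, was not tested. Its signal was 8.21, 7.64, 7.10, 59.6 and 12.9 in young controls and 43.6, 86.9, 119.9, 137.8 and 51.6 in old controls, with 10 of the 20 arrays at or above the limit. Young replicate 4 lay among the old arrays, and without any limit on signal the difference was 2.64 ± 0.64 (adjusted p = 0.048).

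The secreted proteins differed from each other. Lgals3, a galactose-binding lectin released by phagocytes, was at 62.6, 62.0, 44.9, 17.5 and 33.0 in young and at 91.7, 112.6, 140.3, 132.1 and 79.3 in old controls, and 3 of the 5 young arrays were below the limit for testing. It rose by 1.45 ± 0.28 (adjusted p = 0.0080), 2.73-fold, and with only these 2 groups in the fit the adjusted p was 0.052. Apoe lay between 13856 and 18012 in both groups together, and its difference of 0.09 ± 0.07 (adjusted p = 0.60) had a 95% interval of -0.06 to 0.24, so a rise of the size seen in Cd68 was outside its interval. With Student's t-test of the study's methods on log2 signal, 6 genes, the same as above, reached the threshold of those methods, and 2 (Clec7a and Lyz1) passed after Benjamini-Hochberg adjustment.

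Calorie restriction left the 9 genes tested in neocortex without a call (0 of 9, limma), where 30.6% of all tested genes changed in either direction. At an unadjusted p under 0.05 there was 1, Apoe, and with the methods' t-test there were 0 after adjustment. Clec7a was at 104.2, 91.2, 136.9, 120.6 and 94.7 in old CR mice, and 3 of these 5 arrays were below every old control. Its difference from old controls was -0.42 ± 0.23 (adjusted p = 0.17), with a 95% interval of -0.90 to 0.05. Tyrobp was at 1369, 1278, 1241, 1562 and 1200, inside the range of old controls, with a difference of -0.19 ± 0.11 (adjusted p = 0.21). Differences were 0.18 ± 0.20 for Lyz1, -0.05 ± 0.29 for Trem2, 0.02 ± 0.28 for Lgals3, -0.05 ± 0.12 for Cd68, -0.41 ± 0.41 for Itgax and -0.26 ± 0.13 for Axl, and none passed the test. The highest of their adjusted p values was 0.96 and the lowest 0.14. Apoe was at 20573, 15696, 17482, 18544 and 15355 in old CR mice, a difference of 0.17 ± 0.07 (adjusted p = 0.082), and it passed without old control replicate 3 (0.22, adjusted p = 0.020), without old CR replicate 2 (0.21, adjusted p = 0.047) and without old CR replicate 5 (0.21, adjusted p = 0.033).

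Resveratrol raised 3 of the 9 genes above old controls, Clec7a, Tyrobp and Lyz1, where 12.3% of all tested genes rose. Clec7a was at 242.8, 206.7, 189.7, 362.9 and 234.6 in old resveratrol mice, and all 5 arrays lay above all 5 old controls. It rose by 0.73 ± 0.23 (adjusted p = 0.022), 1.66-fold. Without old resveratrol replicate 4, its highest array, the change was 0.58 (adjusted p = 0.080), and without old control replicate 1 it was 0.64 (adjusted p = 0.060). Tyrobp was at 2063, 2434, 1637, 2268 and 2042, of which 4 were above every old control, and it rose by 0.45 ± 0.11 (adjusted p = 0.0043). Lyz1 was at 1632, 2201, 1257, 2999 and 1819, of which 4 were above every old control, and it rose by 0.88 ± 0.20 (adjusted p = 0.0017), 1.84-fold. Under the mean of all Lyz1 probe sets the change was 0.13 (adjusted p = 0.76). With the methods' t-test, 2 of the 3 (Clec7a and Lyz1) passed after adjustment on log2 signal and 0 on unlogged signal.

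The other genes did not pass under resveratrol. Lgals3 was at 189.2, 163.8, 121.2, 207.9 and 178.9, with 4 of 5 arrays above every old control, and its difference of 0.64 ± 0.28 gave an adjusted p of 0.095. Trem2 was at 389.8, 432.9, 194.1, 328.3 and 488.4, which spans the old controls, with a difference of 0.25 ± 0.29 (adjusted p = 0.59). Cd68 differed by 0.16 ± 0.12, Apoe by 0.07 ± 0.07, Itgax by -0.04 ± 0.41 and Axl by -0.24 ± 0.13, with adjusted p values from 0.18 to 0.96. Cst7, not tested, was at 139.1, 110.9, 9.76, 72.2 and 82.2 in old resveratrol mice and at 44.5, 25.9, 69.1, 63.5 and 24.0 in old CR mice.

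**Figure D2:**
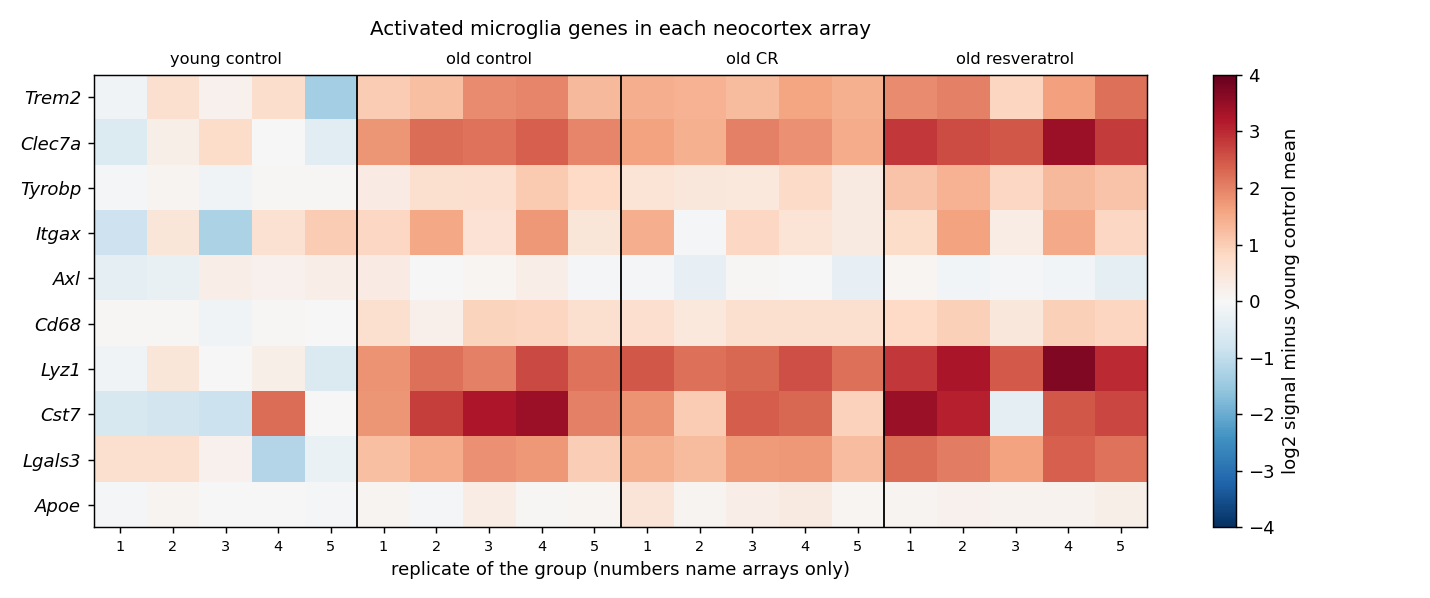
Each of the 20 neocortex arrays (columns, ordered by group and replicate number) and each gene (rows), coloured by its log2 signal minus the young control mean, from -4 (blue) to 4 (red). Clec7a, Lyz1 and Cst7 show the darkest red in old mice, while Axl and Apoe stay near white in every group, and old resveratrol replicate 3 is paler than its group for most genes.

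Some arrays were high or low in their group for several genes, as the map of arrays shows. Old control replicate 4 was the highest of its group for 6 of the 10 genes, and old resveratrol replicate 3 was the lowest of its group for 8 of 10. Old resveratrol replicate 3 also had the least striatal signal of its group, 3917 against 9842.5 to 14483 in the other 4. Old resveratrol replicate 4, the highest of its group for 4 genes, had the neutrophil gene S100a8 at 1170 and the myeloid gene Plac8 at 697, and no other neocortex array had more than 542 for S100a8 or 84.2 for Plac8. Of the 8 monocyte and neutrophil markers with a probe set, 3 reached the limit for testing, and Ccr2, Camp, Chil3 and Mmp8 stayed below it on average. S100a8 was at 542, 144.4, 185.1, 1170 and 86.0 in the old resveratrol mice, and 4 of these arrays lay above every old control (134.8 at most). Of the 3 tested, S100a8 (1.52 ± 0.47, adjusted p = 0.018) and Plac8 (1.26 ± 0.45, adjusted p = 0.043) rose under resveratrol, as Clec7a, Tyrobp and Lyz1 did. Over all tested genes 12.3% rose, and the methods' t-test called 0 of these 3 markers. The summed signal of the 8 markers was 254.8 to 436.5 in old controls and 334.9 to 2896 in old resveratrol mice. Without old resveratrol replicate 4 Lyz1 and Tyrobp kept their calls. Clec7a then lost its call, as given above, while the other 4 arrays (189.7 to 242.8) still lay above every old control (178.1 at most). The part of blood cells in these values was not tested.

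The diets were also set against each other at 30 months. Clec7a, Tyrobp and Lyz1 were lower under CR than under resveratrol (3 of 9), where 5.62% of all tested genes were lower. Clec7a was lower by 1.15 on the log2 scale (-1.15 ± 0.23, adjusted p = 0.0041), or 2.22-fold, and Tyrobp by 0.65 (-0.65 ± 0.11, adjusted p = 0.0017), and for both all 5 CR arrays lay below all 5 resveratrol arrays. Lyz1 differed by -0.70 ± 0.20 (adjusted p = 0.026). This call was lost without old CR replicate 2 or 5 (-0.67 and -0.66, adjusted p = 0.065 and 0.055) and without old resveratrol replicate 2 or 4 (-0.65 and -0.54, adjusted p = 0.063 and 0.086). Lgals3 differed by -0.62 ± 0.28 (adjusted p = 0.17), with a 95% interval of -1.20 to -0.04. Trem2, Cd68, Itgax, Axl and Apoe had adjusted p values of 0.32 to 0.95. Both diets were compared with the same 5 old controls, which were also the old side of the age comparison, so these comparisons are not independent of each other.

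Genes listed as markers of resting microglia, several of which mark macrophages in general, were measured beside the activation genes. With age, 7 of 18 rose and 0 fell, with a median change of 0.22 against 0.02 over all tested genes, of which 1.08% rose and 0.383% fell. The methods' t-test left 1 riser, and leaving out old control replicate 4 left 4. The risers were the complement genes C1qa (0.57 ± 0.11), C1qb (0.50 ± 0.12) and C1qc (0.61 ± 0.12), the protease Ctss (0.52 ± 0.08), the Fc receptor chain Fcer1g, the lysosomal gene Laptm5 and the transcription factor Sall1 (0.86 ± 0.16). P2ry12, Tmem119, Cx3cr1 and Csf1r, which define the resting state, changed by 0.09 to 0.16 and did not pass. Under CR, 8 of the 18 fell, with a median of -0.30 against -0.03, where 17.5% of all tested genes fell, among them Olfml3 (-0.78 ± 0.19), Selplg (-0.54 ± 0.14), Tmem119 (-0.53 ± 0.12) and Fcrls (-0.47 ± 0.14). Under resveratrol 7 rose, with a median of 0.29, where 12.3% of all tested genes rose (4 with the methods' t-test), led by the receptor Gpr34 (0.88 ± 0.12) and Laptm5 (0.59 ± 0.15). Against resveratrol, 11 were lower under CR, where 5.62% of all tested genes were lower (by the t-test of the methods 4 on log2 and 3 on unlogged signal, and 7 without old CR replicate 2). The summed signal of these markers was 14238 to 17269 in young controls, 19403 to 22740 in old controls, 16495 to 19450 in old CR and 22514 to 29975 in old resveratrol mice. How much of the change in the activation genes follows the amount of microglial RNA was not tested.

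**Figure D3:**
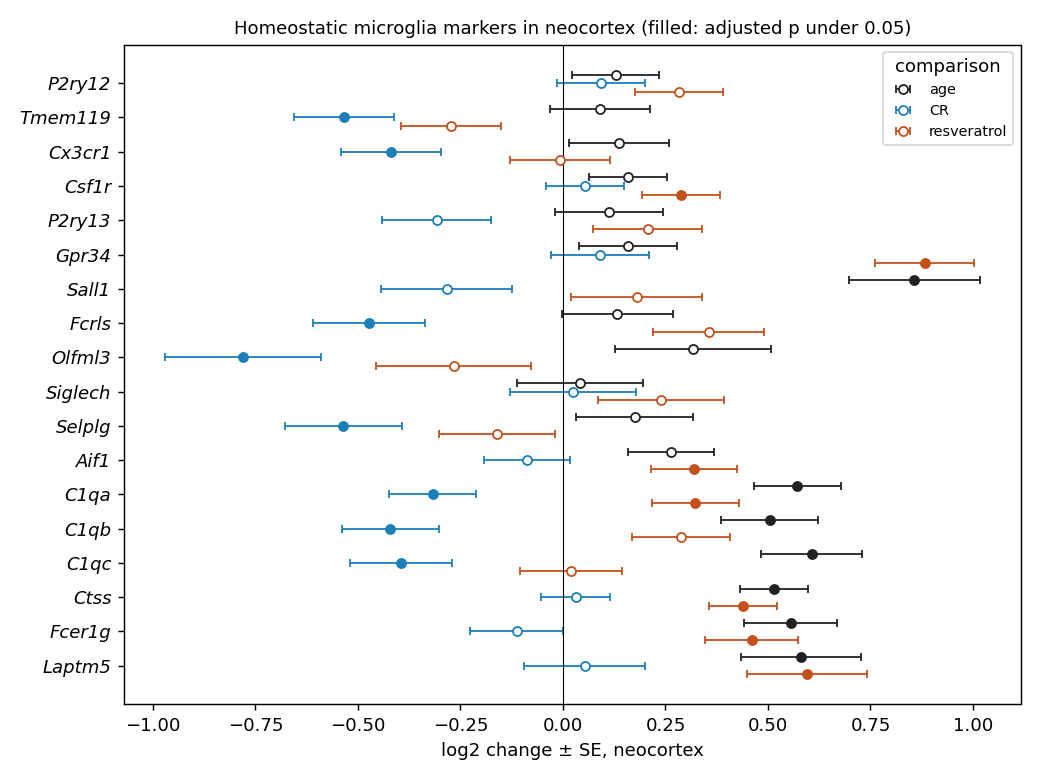
Log2 change with its standard error (x axis) in the neocortex for 18 genes listed as markers of resting microglia (rows), several of which mark macrophages in general. Age is in black, CR in blue and resveratrol in orange. Filled points have an adjusted p under 0.05, and the filled CR points all lie to the left of 0 while the filled age and resveratrol points all lie to the right.

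Other genes known from activated microglia followed in part. Of 25 tested, 8 rose with age and 0 fell, with a median change of 0.33 against 0.02 over all genes, of which 1.08% rose, and the methods' t-test called 2. They included the chemokine Ccl6 (1.44 ± 0.30), Lyz2 (1.31 ± 0.20), the surface antigen Cd52 (1.04 ± 0.19) and the lipopolysaccharide co-receptor Cd14 (0.64 ± 0.16). The glycoprotein gene Gpnmb differed by 1.28 ± 0.46 and did not pass (adjusted p = 0.18). Under CR 3 rose and 2 fell, no larger shares than over all tested genes (13.1% and 17.5%), among them the growth factor Igf1 (0.59 ± 0.14) and the protease Ctsz (-0.34 ± 0.09). Under resveratrol 7 rose, where 12.3% of all tested genes did (2 with the methods' t-test), and 0 fell, among them Ch25h (0.93 ± 0.34), Lyz2 (0.57 ± 0.20) and Hif1a (0.46 ± 0.06). Against resveratrol, 4 were lower under CR, where 5.62% of all tested genes were lower, Cd52 (-0.76 ± 0.19), Lyz2, Ctsd and Hif1a.

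Genes that work with the receptors were measured too. Of 12 tested genes that act downstream of Trem2, Clec7a and Tyrobp, such as the phospholipase Plcg2 (0.05 ± 0.19) and the phosphatase Inpp5d (0.17 ± 0.14), limma called 0 with age, with 2 at an unadjusted p under 0.05 and 0 with the methods' t-test. Under CR 3 fell, led by Plcg1 (-0.56 ± 0.10), where 2287 of all 13057 tested genes fell. Under resveratrol Bcl10 rose (0.34 ± 0.10), where 12.3% of all tested genes did. Plcg1 (-0.43 ± 0.10) and Grb2 fell, where 1820 of 13057 did. Of 4 beta2 integrin genes tested, Itgax among them, 1 was called with age, where 1.08% of all tested genes rose. It was the Itgax partner Itgb2, which rose by 0.66 ± 0.17 (adjusted p = 0.049), and the methods' t-test called 0 of the 4. Of the TAM receptor family to which Axl belongs, 0 of 5 genes changed with age (limma, 0 at an unadjusted p under 0.05, and 0 with the methods' t-test). Under CR 3 of the 5 were called, where 30.6% of all tested genes were. Among them the ligand Gas6 fell (-0.41 ± 0.09) and Mertk rose (0.42 ± 0.09). Under resveratrol 1 was called, Gas6, which fell (-0.50 ± 0.09), where 1820 of 13057 tested genes fell. Of 8 genes of lipid transport, Apod (1.01 ± 0.12) and the cholesterol exporter Abca1 (0.70 ± 0.11) rose with age, where 1.08% of all tested genes rose. The Apoe receptor Lrp1 fell under CR (-0.74 ± 0.09) and resveratrol (-0.45 ± 0.09), where 2287 and 1820 of 13057 tested genes fell.

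Markers of other cells moved in the same comparisons. The astrocyte filament Gfap, a sign of reactive astrocytes, was at 658 to 1057 in young controls, 2011 to 3205 in old controls, 616 to 1061 in old CR and 933 to 1966 in old resveratrol mice, a change of 1.76 ± 0.19 with age, -1.84 ± 0.19 under CR and -1.17 ± 0.19 under resveratrol. Of all 9 astrocyte markers, Gfap alone rose with age. Under CR 1 rose (Gja1, 0.56 ± 0.06) and 4 fell, where 1712 and 2287 of all 13057 tested genes did. Under resveratrol Gja1 (0.69 ± 0.06) and Aqp4 (0.46 ± 0.11) rose while Gfap and Sox9 (-1.02 ± 0.20) fell, where 1601 and 1820 did. Their summed signal was 46738 to 52284 in old controls and 48318 to 55532 in old resveratrol mice, with overlap. All 5 tested striatal markers fell under CR, where 17.5% of all tested genes fell, and the methods' t-test called 1 of them. Of 9 neuron markers tested, 2 were called under CR and 4 under resveratrol, and 0 with age (limma, 2 at an unadjusted p under 0.05, and 0 with the methods' t-test). Of 7 oligodendrocyte markers, 1 was called with age, 2 under CR and 2 under resveratrol. Over all 13057 tested genes, 191 were called with age, 3999 under CR and 3421 under resveratrol. Of the 6 perivascular macrophage markers tested, F13a1 rose under CR (0.57 ± 0.21), where 1712 of 13057 tested genes rose. With age 0 of 6 changed (limma, 2 at an unadjusted p under 0.05, and 0 with the methods' t-test). The 3' minus 5' log2 signal of beta-actin, which rises as RNA degrades, was 0.54 to 0.71 in young controls, 0.45 to 0.60 in old controls, 0.66 to 0.77 in old CR and 0.76 to 1.01 in old resveratrol mice. Neither diet group overlapped with the old controls (exact permutation test, two-sided, p = 0.0079, the smallest that 5 against 5 arrays can give, adjusted p = 0.044 over 216 tests), whereas the age groups overlapped. The same measure of GAPDH overlapped, at -0.48 to -0.34 in old controls, -0.44 to -0.36 in old CR and -0.45 to -0.32 in old resveratrol mice (exact permutation test, two-sided, p = 0.98 and 0.32 for the diets). The spiked-in poly-A probe sets, which follow labelling, had a mean log2 signal of 8.49 to 9.25 in old controls, 8.48 to 9.58 in old CR and 9.46 to 10.04 in old resveratrol mice, the last without overlap (exact permutation test, two-sided, p = 0.0079, adjusted p = 0.044). The part of RNA quality and labelling in the diet results was not tested.

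**Figure D4:**
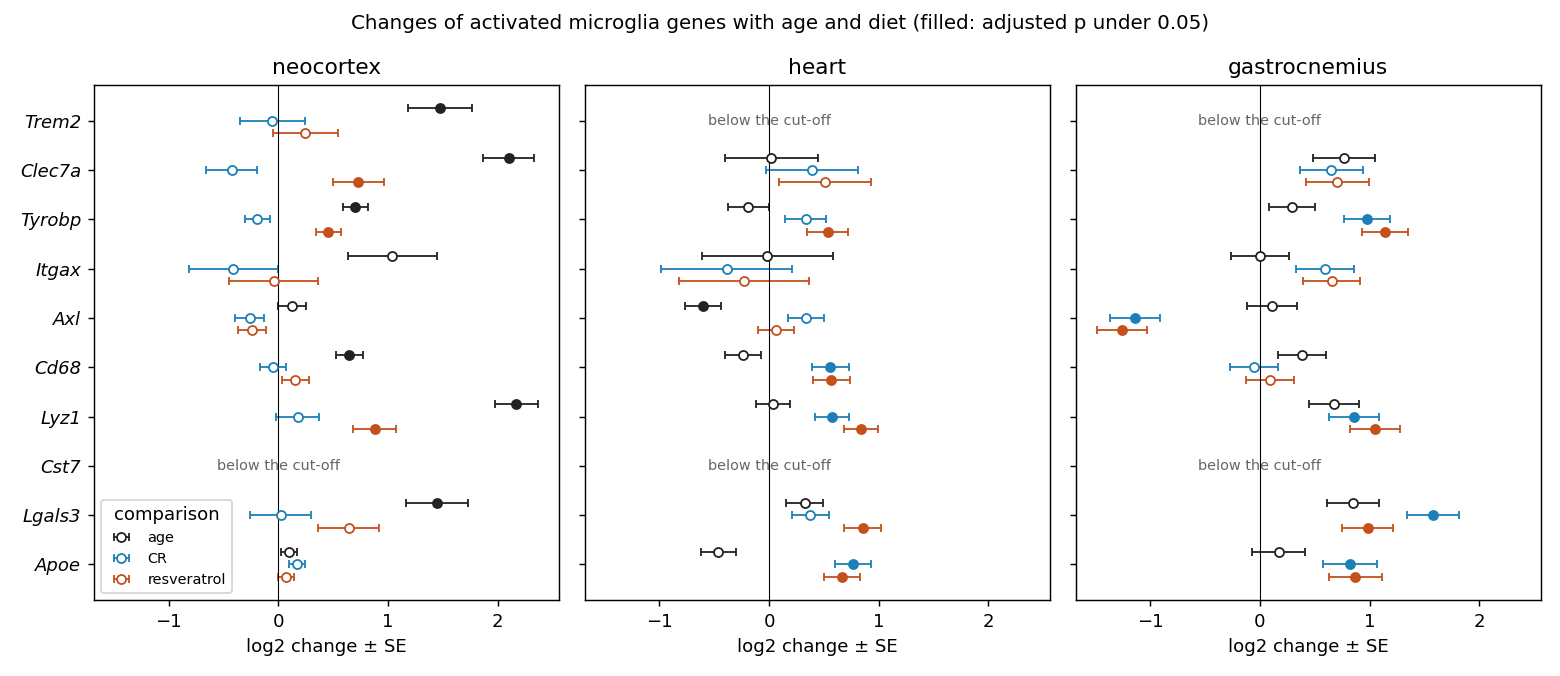
Log2 change with its standard error (x axis) for each gene (rows) in neocortex, heart and gastrocnemius (panels), with age in black, CR in blue and resveratrol in orange. Filled points have an adjusted p under 0.05. The filled age points lie in the neocortex, with Axl in the heart as the exception, and the filled diet points of heart and gastrocnemius lie to the right of 0 except for Axl in gastrocnemius.

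In the heart, age raised none of the 8 genes tested, and Axl fell, where 3.79% of all tested genes fell. Axl was at 976, 1520, 1385, 1141 and 1481 in young and at 722, 849.5, 1109, 578.5 and 1103 in old controls, with overlap, and it fell by 0.60 (-0.60 ± 0.16, adjusted p = 0.019). The other Axl probe set, which reached the limit in heart, differed by -0.07 ± 0.70 (adjusted p = 0.97, over all probe sets). A mean over both gave -0.33 (adjusted p = 0.62), so the call rests on 1 probe set. The call was lost without young control replicate 2 (-0.54, adjusted p = 0.058), old control replicate 1 (-0.54, adjusted p = 0.053) or old control replicate 4 (-0.46, adjusted p = 0.067), and another gene was added among the calls without young control replicate 1 (Lgals3, 0.47, adjusted p = 0.050) or without old control replicate 3 or 5 (Apoe, -0.59 and -0.57, adjusted p = 0.019 and 0.028). Clec7a differed by 0.02 ± 0.42, Tyrobp by -0.19 ± 0.19, Cd68 by -0.24 ± 0.17, Lyz1 by 0.04 ± 0.15, Itgax by -0.02 ± 0.60, Lgals3 by 0.32 ± 0.17 and Apoe by -0.46 ± 0.16, and none of these passed. Under CR 3 of 8 rose, where 7.94% of tested genes rose: Apoe by 0.76 ± 0.16 (adjusted p = 0.0011), Lyz1 by 0.57 ± 0.15 (adjusted p = 0.0081) and Cd68 by 0.56 ± 0.17 (adjusted p = 0.017), the last not without old control replicate 2 (0.47, adjusted p = 0.057). Apoe was at 9771, 8858, 8033, 7735 and 8124 in old CR hearts and at 4418, 4318, 7043, 3429 and 6698 in old controls, and these groups did not overlap. Under resveratrol 5 of 8 rose, where 7.08% of tested genes rose: Lgals3 (0.85 ± 0.17), Lyz1 (0.84 ± 0.15), Apoe (0.66 ± 0.16), Cd68 (0.57 ± 0.17) and Tyrobp (0.53 ± 0.19, adjusted p = 0.046). The Lyz1 probe set not marked as binding related transcripts differed by 0.67 ± 0.75 under CR and -0.50 ± 0.75 under resveratrol (adjusted p = 0.58 and 0.73, over all probe sets). A mean over all Lyz1 probe sets gave 0.65 and 0.52 (adjusted p = 0.074 and 0.18), so these rises cannot be given to Lyz1 alone. The Tyrobp call was lost when any of 8 arrays was left out, with adjusted p up to 0.16 (without old control replicate 2), and that of Cd68 without old control replicate 2 (0.47, adjusted p = 0.061) or old resveratrol replicate 1 (0.48, adjusted p = 0.065), so that 3 calls were left without either of these arrays. Clec7a and Itgax did not pass under either diet, with adjusted p values of 0.46 to 0.84. Axl differed by 0.33 ± 0.16 under CR and 0.06 ± 0.16 under resveratrol (adjusted p = 0.15 and 0.84), and under CR Lgals3 by 0.38 ± 0.17 and Tyrobp by 0.33 ± 0.19 (adjusted p = 0.11 and 0.21), which did not pass. Cst7 (8.34 to 137.0) and the probe set that stood for Trem2 (12.5 to 162.2) were below the limit on average over the 20 heart arrays. The other Trem2 probe set (18.5 to 187.1) was above it, and its changes of -0.93 ± 0.67 with age, 0.57 ± 0.67 under CR and 0.93 ± 0.67 under resveratrol did not pass (adjusted p = 0.43, 0.60 and 0.41, over all probe sets).

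Heart macrophage markers moved with the diets too. Of 8 perivascular and meningeal macrophage markers, which resident macrophages of the heart share, 5 rose under CR and 6 under resveratrol, where 7.94% and 7.08% of all tested genes rose, among them Cd163 (1.53 ± 0.23 and 0.88 ± 0.23) and Mrc1 (0.61 ± 0.14 and 0.78 ± 0.14), and their summed signal was 7038 to 9715 in old controls, 11224 to 14145 in old CR and 11008 to 14345 in old resveratrol hearts. The old control hearts stood apart in RNA quality, with a beta-actin 3' minus 5' value of 1.26 to 1.66 against 0.61 to 0.95 in the other 3 groups. The age and diet comparisons given for the heart all use these arrays, so RNA quality and group cannot be told apart in them.

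In gastrocnemius, 0 of 8 genes were called with age (limma), where 0.429% of tested genes changed, with 3 at an unadjusted p under 0.05 and 0 by the methods' t-test after adjustment. Lgals3 was at 438.1, 665.3, 564.7, 589.7 and 485.3 in young and at 1541, 802.2, 957.2, 829.7 and 907.6 in old controls, without overlap, a difference of 0.85 ± 0.23 (adjusted p = 0.11). Lyz1 differed by 0.68 ± 0.23 (adjusted p = 0.19) and Clec7a by 0.77 ± 0.28 (adjusted p = 0.23). Cd68 differed by 0.39 ± 0.22, Tyrobp by 0.30 ± 0.21, Apoe by 0.17 ± 0.24, Axl by 0.11 ± 0.23 and Itgax by 0.0028 ± 0.26, with adjusted p values from 0.45 to 0.998. With only the 2 groups in the fit 1 gene, Lyz1, was called (adjusted p = 0.039). Under CR 4 of 8 rose and 1 fell, where 17.5% of tested genes rose and 13.6% fell and the median over all tested genes was 0.10. Lgals3 was at 3310, 4113, 3043, 2140 and 2377 in old CR muscle, above every old control, and rose by 1.58 ± 0.23 (adjusted p = 5.6e-05), 2.98-fold. Tyrobp was at 433.9, 733.5, 751.4, 670.1 and 482.6 in old CR and at 274.2, 322.9, 405.3, 221.6 and 327 in old control muscle, and rose by 0.98 ± 0.21 (adjusted p = 0.0015). Lyz1 (0.86 ± 0.23) and Apoe (0.82 ± 0.24) rose as well. The Lyz1 probe set not marked as binding related transcripts differed by 0.85 ± 0.60 under CR and 0.76 ± 0.60 under resveratrol (adjusted p = 0.28 and 0.40, over all probe sets). Axl was at 442.1, 263.2, 570.4, 507.3 and 535.2 in old CR and at 610.3, 1195, 1297, 987.8 and 996 in old control muscle, and fell by 1.14 (-1.14 ± 0.23, adjusted p = 0.00091). A mean over both Axl probe sets gave 0.21 (adjusted p = 0.66), and the second of them stayed between 2.34 and 86.7 in this tissue, with a mean signal below the limit.

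Under resveratrol the same 5 genes were called in gastrocnemius, 4 higher and 1 lower, where 9.42% of tested genes rose and 9.26% fell. Tyrobp was at 534.3, 721.8, 762.2, 564.7 and 816.3, above every old control, and rose by 1.14 ± 0.21 (adjusted p = 0.00074), and Lyz1 rose by 1.05 ± 0.23. Lgals3 rose by 0.98 ± 0.23 with 1 array inside the range of old controls, and Apoe by 0.87 ± 0.24, which did not hold without old resveratrol replicate 5 (0.67, adjusted p = 0.054). Axl was at 415.8, 411.4, 331.4, 411.1 and 504.3 and fell by 1.26 (-1.26 ± 0.23, adjusted p = 0.00065), and the mean over both Axl probe sets gave -0.0014 (adjusted p = 0.998). Clec7a differed by 0.65 ± 0.28 under CR and 0.71 ± 0.28 under resveratrol (adjusted p = 0.085 and 0.087), Itgax by 0.60 ± 0.26 and 0.65 ± 0.26 (adjusted p = 0.089 and 0.086), and Cd68 by -0.05 ± 0.22 and 0.09 ± 0.22, and none of these passed. The probe set that stood for Trem2 (7.98 to 52.7) and Cst7 (10.99 to 101.7) were below the limit on average over the 20 gastrocnemius arrays. The other Trem2 probe set ran from 4.92 to 209.6, with 9 of the 20 arrays at or above the limit and its mean below it. The Axl ligand Gas6 fell too (-0.77 ± 0.19 under CR and -1.12 ± 0.19 under resveratrol). The list of resting microglia markers, several of which mark macrophages in general, had a summed signal of 4920 to 6416 in old controls, 7112 to 11705 in old CR and 7291 to 15040 in old resveratrol muscle. Of 4 monocyte and neutrophil markers tested, 2 rose under CR and 1 under resveratrol, where 17.5% and 9.42% of tested genes rose. The methods' t-test called 1 and 0 of them. Old control replicate 1 and young control replicate 4 had the highest GAPDH 3' minus 5' values of their groups in this tissue (3.23 and 0.19), and without both, 6 of 8 genes were called under each diet, Itgax being the addition when old control replicate 1 alone was left out (0.73 and 0.79, adjusted p = 0.049 and 0.046). The GAPDH 3' minus 5' value was -0.22 to 3.23 in old controls and -0.30 to -0.23 in both diet groups, without overlap. Old CR replicate 2 had the lowest correlation with other arrays (0.850), and without it the same 5 genes were called under CR. The 12 spiked-in poly-A probe sets had a mean log2 signal of 6.40 to 7.19 in old controls and of 9.16 to 10.6 in the diet groups, so labelling, RNA quality and diet cannot be told apart in this tissue.

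**Figure D5:**
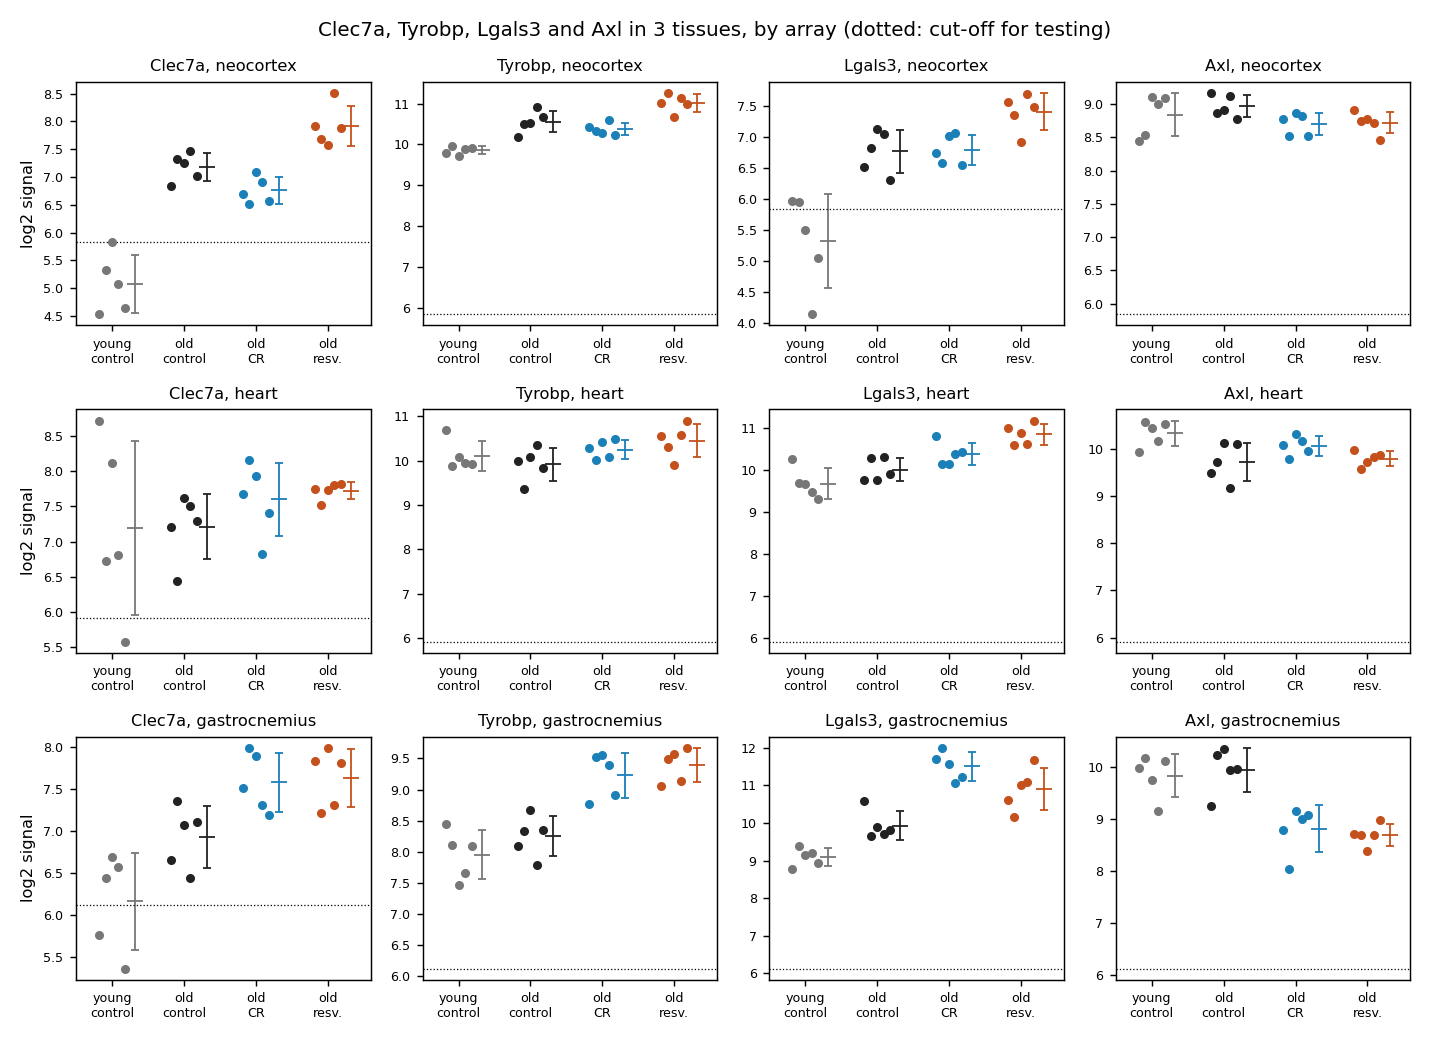
Log2 signal of Clec7a, Tyrobp, Lgals3 and Axl (columns) in neocortex, heart and gastrocnemius (rows), by array, with mean and SD beside the points and the limit for testing as a dotted line (each panel has its own range). Clec7a separates young from old controls in the neocortex but not in the heart, and Axl is lower in both diet groups of gastrocnemius than in its old controls.

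The differences between tissues were tested in a single model of all 60 arrays over 15035 genes, with no term for mice that may have given several tissues. The age change was larger in neocortex than in heart for 4 of 9 genes, Lyz1 (2.13 ± 0.30, adjusted p = 9.6e-06), Clec7a (2.08 ± 0.48, adjusted p = 0.0085), Cd68 (0.89 ± 0.25, adjusted p = 0.035) and Tyrobp (0.89 ± 0.26, adjusted p = 0.038), where 1.87% of tested genes had such a difference. Lyz1 and Clec7a stayed called whichever array was left out. Of the 20 arrays left out in turn, 11 cost the Tyrobp call and 9 the Cd68 call (adjusted p up to 0.099 and 0.078, both without old control replicate 2 of heart), and quantile normalization cost the Cd68 call (0.75, adjusted p = 0.11). Both were lost without old control replicate 2 or young control replicate 1 of heart, and without young control replicate 3 or 5 or old control replicate 3 or 4 of neocortex. These left 2 genes, or 3 without old control replicate 2 of heart, where Lgals3 was added (1.19, adjusted p = 0.050). Against gastrocnemius, Lyz1 alone passed (1.49 ± 0.30, adjusted p = 0.012), where 0.146% of tested genes did, and Clec7a differed by 1.33 ± 0.48 (adjusted p = 0.26). The differences from heart use the old control hearts, which stood apart in RNA quality (beta-actin 3' minus 5' of 1.26 to 1.66). RNA quality and tissue cannot be told apart in them.

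The diet changes were compared in the same model. None of the 9 genes differed between neocortex and heart under CR, where 8.03% of tested genes differed in either direction (limma, 4 at an unadjusted p under 0.05), or under resveratrol, where 4.81% did (limma, 1 at an unadjusted p under 0.05). No test other than limma was run on these differences. The count stayed at 0 for both diets with quantile normalization, an offset of 16, no filter or any 1 array left out. Against gastrocnemius, the CR change in neocortex was lower for Lgals3 (-1.55 ± 0.34, adjusted p = 0.00072) and Tyrobp (-1.17 ± 0.26, adjusted p = 0.00075), where 9.12% of tested genes were lower and the median over all genes was -0.18. It was higher for Axl (0.88 ± 0.27, adjusted p = 0.016), where 8.15% were higher. The resveratrol change was higher in neocortex for Axl (1.02 ± 0.27, adjusted p = 0.0071), where 5.82% of tested genes were higher, and lower for Apoe (-0.80 ± 0.26, adjusted p = 0.037), where 4.64% were lower. The Apoe difference was lost when any of 10 arrays was left out, with adjusted p up to 0.12 (without gastrocnemius old resveratrol replicate 5). All of these differences use the old controls of heart or gastrocnemius. Those arrays stood apart from the diet groups in RNA quality, and in gastrocnemius also in labelling, so that these and tissue cannot be told apart.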

How the data were processed

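RNA of neocortex, heart and gastrocnemius was hybridised to 60 Affymetrix Mouse Genome 430 2.0 arrays, 5 per group and 1 animal per array. The deposited values are linear signal intensities that the authors computed with GCOS 1.2 and scaled so that the 2% trimmed mean of each array was 500. They were used as deposited, rescaled to the common trimmed mean of the tissue, given a floor of 1 and log2 transformed. Their precision is limited by the number of arrays.

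Probe sets with exactly 1 symbol in the platform annotation were named (34945 of 45101, with 932 having several symbols, 9160 none and 64 being controls), and a gene was read from whichever of its probe sets was brightest on average across the 60 arrays. Genes with a mean log2 signal under the 40th percentile of a tissue were left out. Changes were tested with limma 3.58.1 (lmFit and eBayes with a trend, R 4.3.3) over the 4 groups of a tissue, and differences between tissues over all 60 arrays, with Benjamini-Hochberg adjustment and a threshold of 0.05. Plots used matplotlib 3.10.9, and exact tests and tables numpy 2.4.6 with pandas 2.3.3 under Python 3.11.15. The code was tested on simulated data. The fits were repeated with other normalizations, filters, offsets, gene summaries and sets of arrays, and with a replicate block. They were also repeated with the t-test of the study's methods, which call genes at a p of 0.01 or less. Counts given for that t-test are after Benjamini-Hochberg adjustment at 0.05, except where the threshold of the methods is named. The replicate numbers did not pair the arrays.

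The 10 genes and the gene lists were chosen with earlier results of these data known. All 10 genes are described in every tissue, and between tissues those that differed, with Clec7a. Of each list described by its genes, up to 4 called genes with the largest change and defining markers low in signal are named, and the others named with them were chosen after their values were seen. Markers of neurons, oligodendrocytes, endothelium, cortical layers, heart and skeletal muscle and fat cells were listed too, and their genes are not named, although some were called. The labels call the arrays biological replicates, and p values measure the spread between them.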

Additional observations from a re-analysis of the deposited data

Results flagged for a closer look

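In 10 of the 120 groups of 5 arrays tested, 1 array stood far from the other 4, and chance alone gives about 1 in 20 groups. In neocortex these were the lowest Cd68 signals of the young controls (230.1, replicate 3) and of old CR mice (340.4, replicate 2), the highest Cst7 signal of the young controls (59.6, replicate 4) and the lowest Cst7 signal of old resveratrol mice (9.761, replicate 3). In heart they were the lowest Clec7a signal under resveratrol (183, replicate 2), the highest Trem2 signal under CR (162.2, replicate 5) and the highest Tyrobp signal of young controls (1662, replicate 1). In gastrocnemius they were the lowest Trem2 signal under CR (16.49, replicate 1), the highest Lgals3 signal of old controls (1541, replicate 1) and the lowest Apoe signal of young controls (710.9, replicate 4).

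In 10 cases a change differed between tissues by limma's test of the difference itself. With age, the log2 change in neocortex exceeded that in heart by 2.1344 for Lyz1, 2.0807 for Clec7a, 0.89337 for Tyrobp and 0.88782 for Cd68, and that in gastrocnemius by 1.4936 for Lyz1. The CR change in neocortex minus that in gastrocnemius was -1.555 for Lgals3, -1.1693 for Tyrobp and 0.87688 for Axl. The resveratrol change in neocortex minus that in gastrocnemius was -0.80176 for Apoe and 1.0199 for Axl. The limits of RNA quality and labelling given for heart and gastrocnemius apply to these differences.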

How the results depend on the processing

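Of the results for single genes under the alternatives run, 2906 kept their side of the threshold, 97 lost the call and 29 gained one. A change of direction was counted only where the result was called in at least 1 of the 2 fits compared, and there was 1. That one was Axl under CR in gastrocnemius, at 0.21 when its probe sets were averaged. The t-test of the methods was counted after Benjamini-Hochberg adjustment, on log2 and then on unlogged signal. It called 2 and 2 genes in place of 6 for age in neocortex, and 0 and 0 in place of 1 for age in heart. For resveratrol it called 2 and 2 in place of 5 in heart, and 3 and 3 in place of 5 in gastrocnemius. On unlogged signal it called 0 in place of 3 for resveratrol in neocortex and 1 in place of 3 for CR against resveratrol. Without adjustment, at the threshold of the methods, it called 6 and 6 for age in neocortex and 3 and 3 for CR against resveratrol. With limma, the number called for age in heart was 2 with quantile normalization, 0 with only the 2 groups compared and 0 with probe sets averaged, which also gave 3 for resveratrol in heart. For age in gastrocnemius it was 1 with only the 2 groups compared. Without Lyz1, 0 genes differed in their age change between neocortex and gastrocnemius. Leaving out 1 array at a time gave 0 to 2 genes for age in heart, 3 to 5 for resveratrol in heart, 0 to 1 for CR in neocortex, 2 to 5 for the age difference between neocortex and heart and 1 to 3 for the resveratrol difference between neocortex and gastrocnemius. The cause of these shifts was not tested.

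Over all genes in neocortex, the number called ran from 27 to 320 for age (191 as reported), 3059 to 7127 for CR (3999), 2414 to 6515 for resveratrol (3421) and 443 to 2178 for CR against resveratrol (1212). The replicate numbers did not pair the arrays (same-number correlations of -0.20 to 0.17), and with a replicate block the counts of called genes were 6, 0, 3 and 3 in neocortex for age, CR, resveratrol and CR against resveratrol, as without it. A stricter filter at the 60th percentile left Clec7a, Lgals3 and Itgax out of the neocortex tests, so their values rest on low signals.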
